A study of Mus musculus with 24 samples.

Results

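Annexins are calcium-dependent phospholipid-binding proteins, and 9 of their genes were followed here in the livers of mice on a methionine-choline deficient (MCD) or a control diet. The genes were Anxa1, Anxa2, Anxa3, Anxa4, Anxa5, Anxa6, Anxa7, Anxa11 and Anxa13, each taken by its mouse gene symbol from the 56205 gene rows of the count table. Each symbol matched 1 row, and all 9 rows were among the 14109 genes with enough counts to be tested. RNA sequencing of poly(A)-selected RNA had been run on whole livers of 24 C57BL/6J mice, 12 on the MCD diet and 12 on the control diet, after 20 weeks of feeding. The study's methods describe its MCD diet as high in fat, and its results name a choline-deficient, amino acid-defined diet high in fat. Each diet was given to 6 males and 6 females, but the labels do not give the sex of a single library or the age of the mice, and they name no genetic change or drug. An MCD diet withholds, wholly or in part, the precursors from which the liver makes phosphatidylcholine for lipoprotein export. It is used as a dietary model of steatohepatitis with fibrosis. Livers were sequenced to between 16388650 and 24915175 counts per library, and the scaling factors of the 2 diets did not overlap (0.642 to 0.973 on the control diet, 1.07 to 1.26 on the MCD diet).

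Annexins share a core of repeats that binds acidic phospholipids when calcium rises, and differ in the N-terminal stretch before it, which recruits partner proteins. Several of them gather at torn plasma membranes, where they help to reseal the wound, and others work in endocytosis, vesicle traffic and inflammation. Small S100 proteins bind the N-termini of Anxa1 and Anxa2 and tie a pair of annexin molecules together, so that separate membranes can be bridged.

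To place the genes beside the results that follow, sequence before the transcription start was read from RefSeq (build GRCm38.p6), which held an entry for 6 of the 9 genes and none for Anxa3, Anxa6 and Anxa13. Anxa2 is shown because its mRNA rose, Anxa5 because it was the annexin with the highest level per length, and Anxa11 because it had the lowest log2FC of the 9; the choice of Anxa2 and Anxa5 was made after their values were seen. The longer stretches hold only bases before every annotated exon of the gene. Capitals there mark an AP-1 motif (TGANTCA) or a GC box (GGGCGG or its reverse complement). Stretches of 30 bases around a TATA box are added for Anxa2 and Anxa1. Capitals in these mark TATAAA alone, so a GC box in the Anxa2 stretch is unmarked. Both stretches lie within the annotated gene, which for Anxa2 begins at 69453620. Anxa1 was the member with the largest rise, and its upstream window lies within an annotated exon and is not printed further.
Anxa2, chr9:69453433-69453619, plus strand: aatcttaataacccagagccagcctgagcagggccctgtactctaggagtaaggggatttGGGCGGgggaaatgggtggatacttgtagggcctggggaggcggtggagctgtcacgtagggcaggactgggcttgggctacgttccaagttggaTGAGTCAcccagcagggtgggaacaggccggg
Anxa2, TATA box, chr9:69453653-69453682, plus strand: aggatggggcgggTATAAAagccccaccca
Anxa1, TATA box, chr19:20390686-20390715, minus strand: cagttcatatccTATAAAatcaggagtcca
Anxa5, chr3:36475895-36476137, minus strand: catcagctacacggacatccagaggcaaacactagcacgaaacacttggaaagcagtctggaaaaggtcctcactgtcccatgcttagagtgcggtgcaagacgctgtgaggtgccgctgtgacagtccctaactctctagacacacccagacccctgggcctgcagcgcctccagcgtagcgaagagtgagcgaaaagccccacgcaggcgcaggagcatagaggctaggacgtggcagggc
Anxa11, chr14:25841905-25842154, plus strand: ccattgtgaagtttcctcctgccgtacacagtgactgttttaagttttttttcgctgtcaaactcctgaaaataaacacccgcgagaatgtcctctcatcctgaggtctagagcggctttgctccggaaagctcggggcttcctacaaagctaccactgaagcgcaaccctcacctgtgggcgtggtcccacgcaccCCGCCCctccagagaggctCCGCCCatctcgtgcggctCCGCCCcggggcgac

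Over the 250 bases before the start and on both strands, Anxa2 was the only one of the 6 members with an entry that held TGANTCA, 95 bases before its start. This motif reads the same on both strands, so it is counted once, and 6.75% of all 32851 RefSeq windows held it. TATAAA was found in Anxa2 (17 bases before the start) and Anxa1 (32 bases before it), against 12.4% of all windows. GC boxes were found in Anxa2 (3), Anxa11 (3) and Anxa7 (4 distinct boxes over 2 overlapping windows), and 32.7% of all windows held one. The sequence GGAATG, bound by TEAD factors, occurred in Anxa1 alone (12.6% of all windows), and CCAAT in none of the members (33.8%). The Anxa5 and Anxa4 windows held none of the 5 motifs. Distances run to the RefSeq start, and some of the sites lie within the annotated gene. Those are the Anxa2 TATAAA, the Anxa2 GC boxes at 69453635 and 69453659, the Anxa1 sites, and the Anxa7 boxes other than that at 20480141. These are matches of letters and say nothing of binding in these livers.

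Expression was compared between diets across all genes with edgeR's quasi-likelihood test, and calls needed both an FDR (Benjamini-Hochberg) of at most 0.01 and an absolute log2FC above 0.5. By this rule 6 of the 9 annexins were higher on the MCD diet (Anxa1, Anxa2, Anxa3, Anxa4, Anxa5 and Anxa13) and 0 were lower, while Anxa6, Anxa7 and Anxa11 did not pass. Of all genes tested, 19.2% were called higher (2712) and 19.1% lower (2688), 38.3% in all. The median log2FC was 1.08 over the 9 annexins and -0.10 over all genes. In 5 annexins every MCD library lay above every control library, which was so for 9.5% of all genes (the opposite order held for 4.89%). The balance of calls over all genes moved with the scaling, to 4539 higher and 848 lower with library totals as the only scaling and to 3261 and 1710 with upper-quartile factors. Scaling by total counts also moved the median log2FC of all genes from -0.10 to 0.27, so small changes are read relative to it. In whole liver, more cells of a type and more RNA per cell cannot be told apart.

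**Figure D1:**
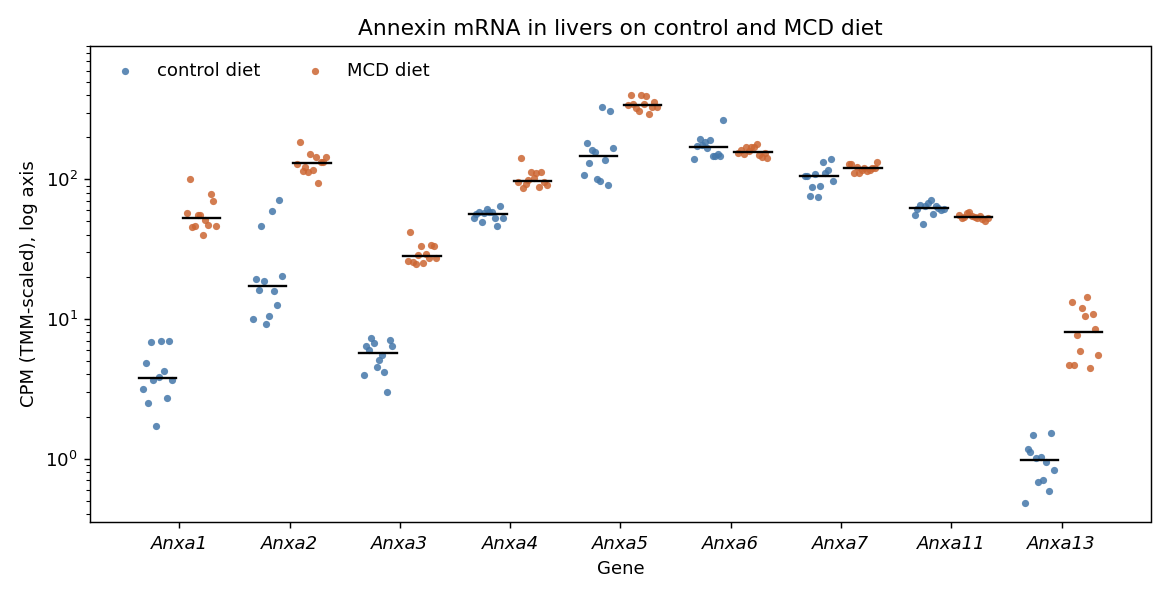
Expression of each annexin in CPM (read counts relative to the TMM-scaled library size, log axis), with 1 point for each of 12 livers a diet (control blue, MCD orange) and a line at the median. Anxa1, Anxa2, Anxa3, Anxa4 and Anxa13 separated by diet with no overlap, while 2 control livers reached the MCD range of Anxa5 and the diets overlapped for Anxa6, Anxa7 and Anxa11.

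Anxa1 showed the largest log2FC of the 9 annexins. It encodes a glucocorticoid-induced protein that dampens neutrophil recruitment through formyl peptide receptors, and it lies at chr19:20373428-20390944 (minus strand, GRCm38, as are all gene positions given here). On the control diet its lowest, median and highest values were 1.72, 3.74 and 6.94 CPM (28 to 155 counts), and on the MCD diet 39.6, 53.1 and 101 CPM (997 to 2783 counts). The lowest MCD liver thus lay well above the highest control liver, and the means of 4.24 ± 1.78 and 57.8 ± 17.6 CPM (SD, n = 12 each) differed 13.6-fold. The log2FC was 3.76 (SE 0.208, FDR = 2.25e-13 in edgeR).

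Anxa13, a myristoylated annexin known from intestinal epithelium, had the lowest mean level per length of the 9 on both diets and rose with a log2FC of 3.13 (SE 0.234, FDR = 2.07e-11 in edgeR). Its values ran from 0.477 through a median of 0.973 to 1.52 CPM on the control diet (7 to 34 counts) and from 4.44 through 8.08 to 14.3 CPM on the MCD diet (94 to 364 counts). No liver of one diet reached the range of the other, although the MCD livers themselves spread widely, with a coefficient of variation of 42.0%. Only 10 of the 12 control libraries exceeded the count filter for this gene (0.51 CPM), against all 12 MCD libraries. Anxa13 lies at chr15:58341471-58389244 on the minus strand.

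Anxa3, an annexin abundant in neutrophils, rose with a log2FC of 2.43 (SE 0.127, FDR = 1.60e-13 in edgeR). The control livers held 2.99 to 7.29 CPM (median 5.73) and the MCD livers 24.7 to 41.8 CPM (median 28.2), again without overlap. Anxa3 lies at chr5:96793339-96845966 on the plus strand, and 112 bases of its exons are shared with the unconfirmed gene model Gm42603 on the same strand, so reads there could not be assigned to one of them with certainty.

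Anxa2 pairs with S100a10 in a tetramer that holds plasminogen and its activator at the cell surface. It had 9.21, 17.3 and 71.1 CPM on the control diet (lowest, median, highest) and 94.5, 130 and 186 CPM on the MCD diet. All 12 MCD livers exceeded all 12 control livers, with a log2FC of 2.35 (SE 0.300, FDR = 1.80e-07 in edgeR). The control group was not uniform. Control livers 4, 8 and 11 had 45.9 to 71.1 CPM and the other 9 had 9.21 to 20.4 CPM, so that the coefficient of variation was 81.4% on the control diet and 17.8% on the MCD diet. With livers 4, 8 and 11 left out, a step chosen after their Anxa2 values were seen, the log2FC was 3.15. Anxa2 lies at chr9:69453620-69491795, and 98 bases of its exons overlap the antisense gene Gm16144, whose reads can be told apart only if strand was used in counting.

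Control livers 4, 8 and 11 also held the 3 highest control values of Anxa1 (6.78 to 6.94 CPM, the others 1.72 to 4.83), and of the plasminogen activator Plat (2.09 to 3.04 CPM, all other control livers lower). For every annexin of the 9 other than Anxa1 and Anxa2, the ranges of these 3 livers and the other 9 control livers overlapped. The summed level of 9 mesenchymal markers was 505 to 621 CPM in livers 4, 8 and 11 and 218 to 411 CPM in the other 9 control livers. For 6 markers of monocyte-derived macrophages it was 62.4 to 78.4 CPM against 20.2 to 52.6 CPM. For 6 cholangiocyte markers the ranges overlapped, at 24.1 to 40.6 and 23.0 to 43.7 CPM. The sums of hepatocyte, Kupffer cell, neutrophil, endothelial and lymphocyte markers overlapped too. The part of these cells in the annexin values of the 3 livers was not tested.

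Anxa5 binds exposed phosphatidylserine and is the protein used as a stain for dying cells. Its levels were 91.6, 147 and 329 CPM on the control diet and 293, 341 and 401 CPM on the MCD diet, with means of 164 ± 78.2 and 346 ± 34.9 CPM (SD, n = 12 each). The log2FC was 1.08 (SE 0.177, FDR = 8.15e-06 in edgeR). The groups overlapped through control livers 8 and 11 (329 and 309 CPM), so that 8 of 12 MCD livers lay above every control liver. Control liver 4, with 162 CPM, did not share the high Anxa5 of the other two. Without the 3 livers the log2FC was 1.40. Anxa5 lies at chr3:36448923-36475894 on the minus strand.

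Anxa4, an annexin of secretory and bile duct epithelia, rose least among the 6 called genes, with a log2FC of 0.88 (SE 0.0760, FDR = 2.70e-10 in edgeR). Its control values were tight (46.2 to 64.4 CPM, median 56.5) and all lay below the MCD values (86.6 to 141 CPM, median 96.8). Anxa4 lies at chr6:86736840-86793584, where 75 bases of its exons overlap the non-coding gene Gm44036 on the opposite strand.

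Anxa6, Anxa7 and Anxa11 did not pass the threshold. Anxa6, whose core is duplicated within one protein and which works on endosomes and in cholesterol traffic, had 139 to 266 CPM on the control diet and 142 to 178 CPM on the MCD diet (log2FC -0.13, SE 0.0878, 95% interval -0.31 to 0.05, FDR = 0.196 in edgeR). Its highest control value came from control liver 12, the library with the lowest scaling factor (0.642). The sign of this value was not stable, since upper-quartile factors gave 0.02 and total counts 0.25.

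Anxa7 and Anxa11 are the annexins with long N-terminal stretches, which bind the calcium sensors encoded by Pdcd6 and Sri. Anxa7 had 75.0 to 139 CPM on the control diet and 111 to 132 CPM on the MCD diet (log2FC 0.21, SE 0.0869, FDR = 0.0339 in edgeR), and passed with total counts alone (0.57). Anxa11, which also tethers RNA granules to lysosomes, had 48.2 to 70.7 and 50.6 to 58.2 CPM (log2FC -0.19, SE 0.0560, FDR = 0.00551 in edgeR). It met the FDR but not the fold limit, and its sign turned with total counts alone (0.17). For all 3 genes the MCD livers lay within the control range and were less spread. The coefficients of variation were 20.3%, 19.3% and 9.73% on the control diet and 7.21%, 5.83% and 4.07% on the MCD diet, in the order Anxa6, Anxa7 and Anxa11. Of these 3 genes only Anxa11 has exons that overlap another gene, 113 bases of the antisense Anxa11os.

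**Figure D2:**
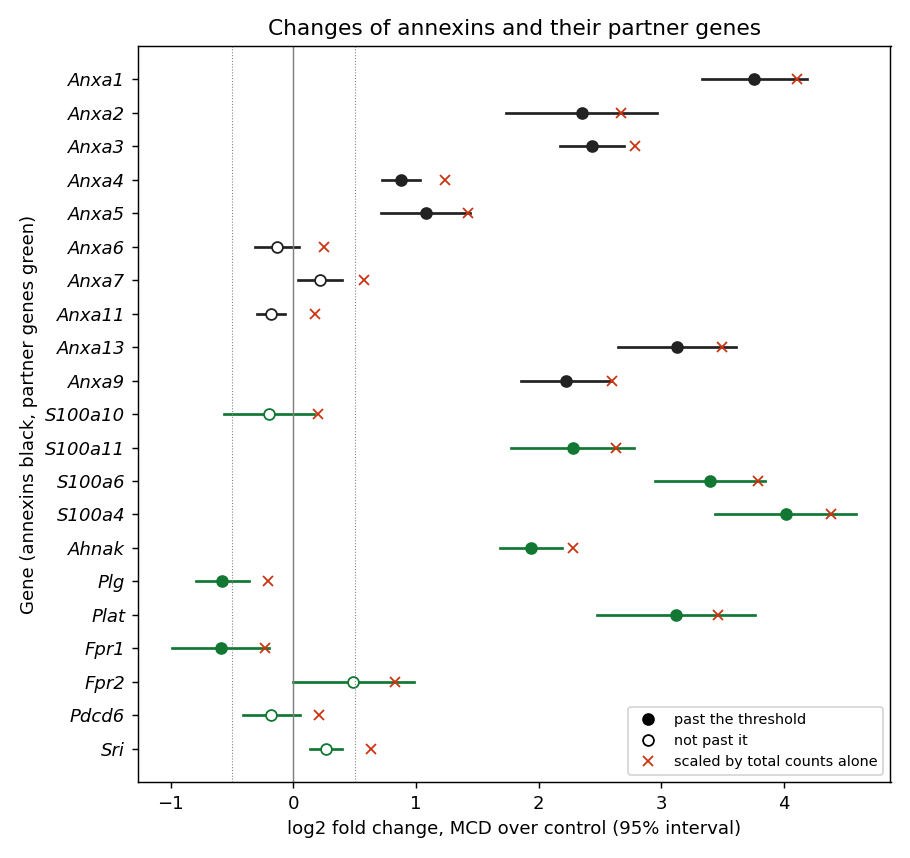
log2FC of MCD over control for the annexins (black) and 11 tested partner genes (green), with 95% intervals over 12 livers a diet; filled points passed the threshold, open points did not, red crosses are the values with library totals as the only scaling, and dotted lines mark the fold limit of 0.5. Crosses lay to the right of every point, and on the other side of 0 for Anxa6, Anxa11, S100a10 and Pdcd6.

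Of the other mouse annexin genes, Anxa9 was also higher on the MCD diet. It rose from 0.737 to 2.12 CPM on the control diet to 4.55 to 8.97 CPM on the MCD diet (log2FC 2.23, SE 0.179, FDR = 7.16e-11 in edgeR), without overlap, though its exons overlap Mindy1 and 6330562C20Rik. Anxa8 ran from 0 to 45 counts in control libraries (median 22.5) and from 0 to 7 in MCD libraries (median 2.5), and was left out by the count filter. When no filter was applied its log2FC was -3.23 (FDR = 6.48e-06 in edgeR), the opposite direction to the other called annexins. The ranges overlapped through control livers 4 and 7, the former with 0 counts. Anxa10 was at or near 0, with at most 1 count in a control and 7 in an MCD library. At these depths a count of 0 allows up to 3 counts, or 0.109 to 0.227 CPM depending on the library, and these floors cover counting error only.

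Levels of different genes were compared only per length, as CPM per kilobase of the union of a gene's exons. On the control diet the order by mean was Anxa5, Anxa6, Anxa7, Anxa11, Anxa4, Anxa2, Anxa3, Anxa1 and Anxa13, from 92.4 ± 44.0 CPM per kb for Anxa5 to 0.711 ± 0.244 for Anxa13 (SD, n = 12). Several neighbours did not hold their order in every liver. Anxa5 exceeded Anxa6 in 9 of 12 control livers, Anxa7 exceeded Anxa11 in 9, Anxa4 exceeded Anxa2 in 9 and Anxa3 exceeded Anxa1 in 7. On the MCD diet the order was Anxa5, Anxa6, Anxa2, Anxa4, Anxa7, Anxa1, Anxa11, Anxa3 and Anxa13, with Anxa5 at 195 ± 19.6 CPM per kb and above Anxa6 in all 12 livers. Anxa2 moved from the sixth place to the third and Anxa1 from the eighth to the sixth. The pairs Anxa4 and Anxa7, and Anxa7 and Anxa1, each held their order in 8 of 12 MCD livers, and Anxa3 exceeded Anxa13 in 10. With the longest transcript as the length, Anxa7 stood above Anxa4 on the MCD diet.

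As a share of the summed level per length of the 9 annexins, Anxa5 made up 42.9% ± 8.95 on the control diet and 52.2% ± 1.63 on the MCD diet (SD, n = 12). With the longest transcript as the length its share was 34.7% ± 8.02 and 41.6% ± 1.74. All other shares given here use the union of exons. The share of Anxa2 went from 1.55 to 6.36% of the pool in control livers to 7.94 to 11.1% in MCD livers, and that of Anxa1 from 0.37 to 1.13% to 3.72 to 7.73%, neither with overlap. The share of Anxa6, in contrast, was 16.4 to 38.4% in control and 12.2 to 16.3% in MCD livers, although its own level did not pass the test. Shares within a pool move together, so a gene with an even level takes a smaller share when the others rise. The summed level in CPM was 476 to 805 in control and 873 to 1223 in MCD livers.

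**Figure D3:**
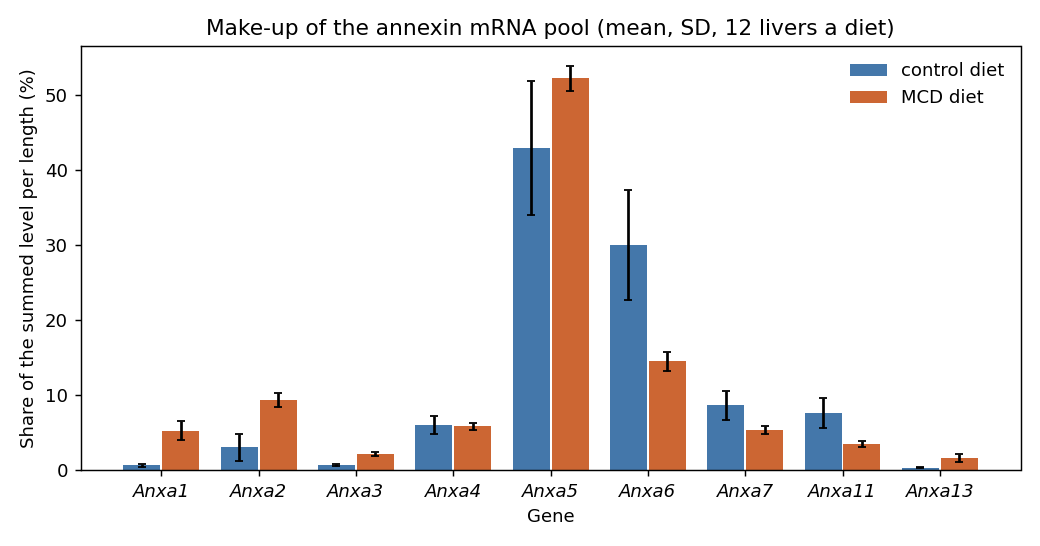
Share of each annexin in the summed level per length (CPM per kb of exon) of the 9 genes, as means with SD over 12 livers a diet. Anxa5 held the largest bar on both diets (42.9% and 52.2%), the Anxa6 bar was 29.9% and 14.5%, and the Anxa2 bar 3.04% and 9.37%.

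Genes whose products bind annexins were then examined as a list of 12. Of the 11 that could be tested, 5 were higher on the MCD diet (S100a11, S100a6, S100a4, Ahnak and Plat), 2 were lower (Plg and Fpr1) and 4 did not pass (S100a10, Fpr2, Pdcd6 and Sri), while Fpr3 had 0 counts in every library. Over all genes tested 19.2% were higher and 19.1% lower, so the share of partner genes called lower was near that of all genes, and most alternatives left 0 or 1 of these calls. The median log2FC of the tested partner genes was 0.49. The S100 genes did not move alike. S100a4 had the largest log2FC (4.01, SE 0.281), from 0.065 to 1.06 CPM on the control diet to 4.30 to 15.2 CPM on the MCD diet, followed by S100a6 (3.40, SE 0.219) and S100a11 (2.28, SE 0.244), each without overlap between diets. Of the 584 exon bases of S100a4, 302 are shared with Gm42674 on the same strand, so its reads could not be assigned with certainty.

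S100a10, the partner of Anxa2, differed from its relatives. It held 35.2, 83.3 and 160 CPM on the control diet and 62.8, 78.1 and 93.7 CPM on the MCD diet, so the MCD livers lay inside the control range (log2FC -0.20, SE 0.180, 95% interval -0.57 to 0.17, FDR = 0.347 in edgeR). Its highest value was again from control liver 12. Ahnak, a giant scaffold protein that binds the Anxa2 and S100a10 complex, rose with a log2FC of 1.94 (SE 0.124, FDR = 1.82e-12 in edgeR).

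Because both counts of a pair come from the same library, the log2 ratio of an annexin's counts to its partner's does not depend on the scaling. For Anxa2 to S100a10 the lowest, median and highest log2 ratios were -3.19, -2.13 and -0.58 on the control diet and 0.52, 0.69 and 1.23 on the MCD diet. Every MCD liver thus had a higher ratio than every control liver. The exons of the genes differ in length (3731 and 1212 bases), so only the difference between diets is read, not the level of a ratio or its sign. The means differed by 2.76 (-1.98 ± 0.859 and 0.776 ± 0.232, SD, n = 12 each; two-sided permutation test, p = 1e-05 and adjusted p = 1e-05 over the 2 ratios, the smallest that 100000 resamples can give). For Anxa1 to S100a11 the ratios were -2.32, -1.18 and -0.52 on the control diet and -0.25, -0.01 and 0.47 on the MCD diet, again with no overlap. Their means differed by 1.32 (-1.26 ± 0.533 and 0.063 ± 0.243, SD, n = 12 each; two-sided permutation test, p = 1e-05, adjusted p = 1e-05), so Anxa1 rose by more than S100a11 although both were called higher.

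**Figure D4:**
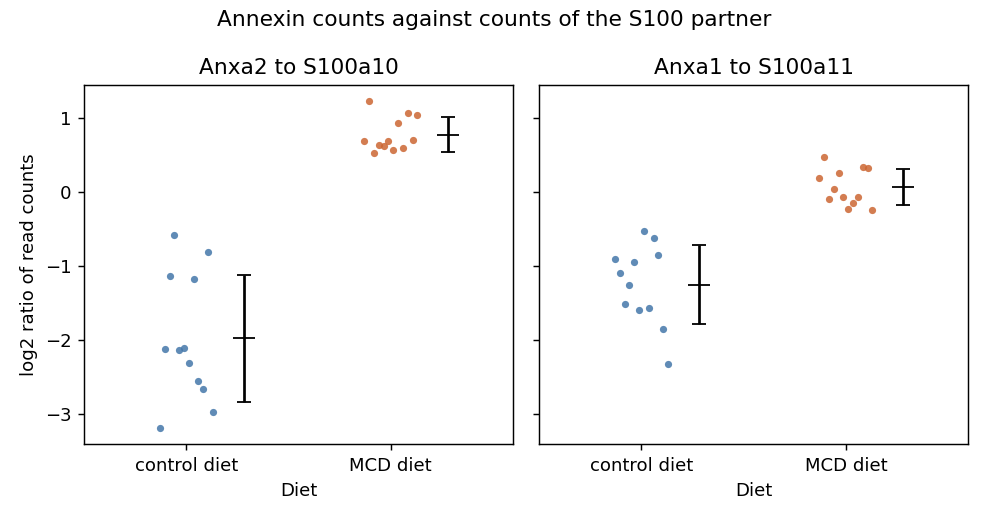
log2 ratio of read counts (pseudocount 0.5) of Anxa2 to S100a10 and of Anxa1 to S100a11 in each liver, with the mean and SD of 12 livers a diet to the right of the points. Every MCD point lay above every control point in both panels (Anxa2 to S100a10, means -1.98 and 0.776), and since counts are not corrected for gene length, a ratio of 0 has no meaning of its own.

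The ligands and enzymes of the Anxa2 complex went in opposite directions. Plat, the tissue plasminogen activator, had 0.26 to 3.04 CPM on the control diet and 6.27 to 17.3 CPM on the MCD diet (log2FC 3.12, SE 0.314, FDR = 3.51e-09 in edgeR), and its log2FC was 4.0 without control livers 4, 8 and 11. Plg, the plasminogen gene and an abundant hepatocyte mRNA, fell by 0.58 on the log2 scale (SE 0.106, FDR = 3.26e-05 in edgeR), from 1596 to 3205 CPM to 1378 to 1962 CPM, with overlap. Upper-quartile factors gave -0.43 for Plg and total counts -0.21, neither past the threshold.

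Among the formyl peptide receptors, through which Anxa1 acts on leukocytes, none was called higher with TMM scaling of all 24 libraries. Fpr1 had 1.35 to 4.86 CPM on the control diet and 1.20 to 2.98 CPM on the MCD diet (log2FC -0.59, SE 0.193, FDR = 0.00916 in edgeR), close to the FDR limit. That call was lost in 18 of the 24 fits with 1 library left out and under 11 of the 12 other alternatives. Among these were DESeq2 (FDR = 0.0123), limma-voom (FDR = 0.0124) and leaving out MCD liver 2 (log2FC -0.50), and over all alternatives its log2FC ranged from -0.67 to -0.23. Fpr2 had 0.273 to 1.90 and 0.524 to 1.75 CPM (log2FC 0.49, SE 0.241, FDR = 0.0789 in edgeR), and passed when control liver 5 was left out (log2FC 0.72, FDR = 0.00425 in edgeR) and with total counts alone (log2FC 0.83, FDR = 0.00601 in edgeR). The calcium sensors of Anxa7 and Anxa11 had log2FC values of -0.18 (Pdcd6, SE 0.114) and 0.26 (Sri, SE 0.0641, FDR = 0.000822 in edgeR), Sri meeting the FDR but not the fold limit.

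Other genes of plasma membrane repair formed a list of 13, of which 12 were tested, 4 were higher (Myof, Syt7, Ehd2 and Cavin1), 1 was lower (Dysf) and 7 did not pass, against 19.2% of all genes higher and 19.1% lower. The largest changes were those of the ferlin Myof (log2FC 2.88, SE 0.179), the calcium sensor of lysosome exocytosis Syt7 (2.27, SE 0.224) and the caveola-associated ATPase Ehd2 (1.58, SE 0.182), all without overlap between diets. Dysf, the ferlin whose loss causes a muscle dystrophy, fell by 0.83 on the log2 scale (SE 0.193, FDR = 0.000552 in edgeR). Cavin1 and Dysf were named after their values were seen. The median log2FC of the list was 0.38, and total counts alone gave 7 higher and 0 lower. Relative log expression factors, upper-quartile factors, no count filter and DESeq2 each gave 6 higher and 1 lower.

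Several other cell types are known to carry annexins, and their markers moved on the MCD diet too, against 19.2% of all genes called higher and 19.1% lower. Called higher were 6 of 6 markers of monocyte-derived macrophages (summed level 20.2 to 78.4 CPM on the control and 622 to 1319 CPM on the MCD diet), 5 of 6 of cholangiocytes (23.0 to 43.7 and 71.3 to 135 CPM) and 7 of 9 of mesenchymal cells (218 to 621 and 765 to 1279 CPM, with 1 of the 9 lower). Called higher were also both tested markers of 5 for neutrophils (summed level 0.412 to 3.02 and 3.23 to 20.6 CPM) and 3 of 5 for lymphocytes (3.06 to 10.7 and 8.18 to 17.1 CPM). Called lower were 4 of 5 for Kupffer cells (137 to 422 and 81.2 to 296 CPM), 4 of 5 for endothelial cells (170 to 249 and 97.3 to 155 CPM) and 3 of 7 for hepatocytes (77545 to 185506 and 60369 to 86338 CPM). The neutrophil marker Ly6g had 0 counts in every control library and at most 3 in an MCD library. The high hepatocyte sums match the labelled tissue. The part of cell makeup in the annexin changes was not tested.

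The livers of a diet also differed among themselves. The log2 CPM of each gene was centred within each diet and compared over the 24 livers with the 10110 tested genes that averaged at least 5 CPM, as a description, since all genes of a library share its RNA and scaling. The genes most like Anxa2 were Anxa5 (r = 0.91), the tetraspanin Cd63 (0.91) and S100a11 (0.91). Those most like Anxa5 were Uap1l1 (0.93), Anxa2 (0.91) and Cd63 (0.90). For Uap1l1 r was 0.96 over the 12 control livers and 0.38 over the 12 MCD livers, and for Cd63 it was 0.93 and 0.59. Anxa3 followed the leukocyte genes Cyth4 (0.92) and Itgax (0.91), and Anxa1 followed the stress-response factor Atf3 (0.85), Ywhah (0.82) and Dnase1l1 (0.82). For Anxa4 the most alike were Mfsd12 (0.71), Gas6 (0.70) and Vat1 (0.70), and for Anxa13 Clstn1 (0.83), Pamr1 (0.82) and Hid1 (0.79). Over control and MCD livers apart, r was 0.54 and 0.95 for Hid1 with Anxa13 and 0.56 and 0.80 for Vat1 with Anxa4.

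The 3 annexins that did not pass had other neighbours. Those of Anxa6 were Shf (r = 0.90), Mtch1 (0.90) and Emc10 (0.89), those of Anxa7 were Agxt2 (0.92), Cdc42 (0.91) and Ugp2 (0.89), and those of Anxa11 were the lipid enzyme genes Dgat2 (0.80), Ces1d (0.78) and Acot11 (0.78). Over control and MCD livers apart, r was 0.88 and 0.0998 for Acot11 with Anxa11, 0.86 and 0.62 for Ces1d with Anxa11, 0.92 and 0.33 for Ugp2 with Anxa7, and 0.97 and 0.57 for Shf with Anxa6. Dgat2 with Anxa11 had 0.80 in each diet. Anxa11 ran against Anxa1 (r = -0.54) and Anxa2 (r = -0.56) over the same 24 livers, whereas Anxa1 and Anxa2 ran together (r = 0.79).

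Anxa2 and Anxa5, each among the genes most like the other, are described within each diet by their correlation alone, since the pair was taken up with earlier results of these data known. No p is given for it. In control livers r was 0.92 (Spearman's rho = 0.90, n = 12), and in MCD livers 0.82 (rho = 0.76, n = 12). Leaving out the 2 livers farthest from the median of Anxa2 gave r = 0.78 in control livers and r = 0.67 in MCD livers. In the 9 control livers other than 4, 8 and 11 it was 0.91.

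The 2 pairs of an annexin and its S100 partner were tested within each diet, with p-values adjusted over these 4 relations. S100a11 and Anxa1 gave r = 0.78 in control livers (permutation p = 0.00293, adjusted p = 0.00586; rho = 0.71, permutation p = 0.0123, adjusted p = 0.0246) and r = 0.84 in MCD livers (permutation p = 0.00097, adjusted p = 0.00388; rho = 0.74, permutation p = 0.00769, adjusted p = 0.0246). Without the 2 farthest livers r was 0.62 (permutation p = 0.0561, adjusted p = 0.224) and 0.50 (permutation p = 0.144, adjusted p = 0.232). Those left out were control livers 8 and 11 and MCD livers 2 and 10. With 10 livers and a narrower range, a lower r cannot show whether the relations rested on the livers left out. In the 9 control livers other than 4, 8 and 11, r of S100a11 and Anxa1 was 0.43. S100a10 and Anxa2 did not pass in control livers (r = 0.53, permutation p = 0.0758, adjusted p = 0.101; rho = 0.55, permutation p = 0.0704, adjusted p = 0.0939) or MCD livers (r = 0.43, permutation p = 0.164, adjusted p = 0.164; rho = 0.40, permutation p = 0.199, adjusted p = 0.199). Without the 2 farthest livers these were r = 0.47 (permutation p = 0.174, adjusted p = 0.232) and r = 0.22 (permutation p = 0.522, adjusted p = 0.522). None of these relations was split by sex, which is not labelled for single libraries. Sex-linked genes were used only for a covariate in an alternative fit of the diet comparison.

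**Figure D5:**
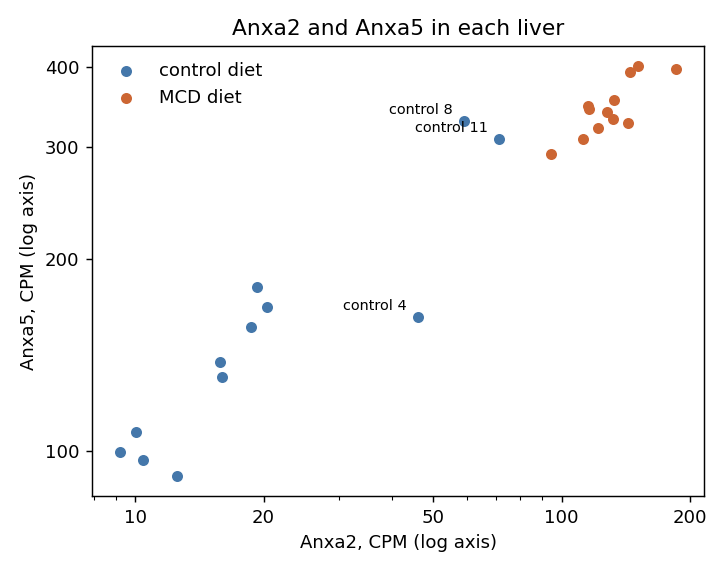
Anxa2 against Anxa5 in CPM (both log axes), 1 point for each of 24 livers, control blue and MCD orange, with control livers 4, 8 and 11 named. Control livers 8 and 11 lay at the edge of the MCD points (Anxa5 at 329 and 309 CPM), while control liver 4 had raised Anxa2 (45.9 CPM) at an Anxa5 level of 162 CPM.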

How the data were processed

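The values deposited by the authors are raw read counts per Ensembl gene, 1 column per library, with no normalization. The submitters' processing notes name bcl2fastq, STAR 2.7.3a and the build mm10 (GRCm38). The study's methods describe stranded libraries counted with the exon quantification pipeline and PISCES against a human reference. Whether these were used for the mouse libraries, and with which annotation and strand setting, was not given in the sources used here, so reads of overlapping genes may be shared. Symbols, positions and exon lengths came from GENCODE mouse release 21, and rows with no symbol there held 0.0808% of counts.

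Genes were kept by filterByExpr and compared with edgeR 4.0.16 (TMM factors, glmQLFit and glmQLFTest, 24 libraries, no covariate, R 4.3.3), with CPM from TMM-scaled library sizes. SEs were derived from the F statistic. Alternatives were DESeq2 1.42.0, limma-voom (limma 3.58.1), other scalings, filters and limits, the replicate number as a block, a score of sex-linked genes as a covariate, and each library left out in turn. Leaving out control livers 4, 8 and 11 was added after seeing the data. On simulated data 181 of 200 changed genes among 14109 were recovered with 1 false call. Adjustment of the relations was planned over 6, and was made over the 4 of the S100 pairs after the Anxa2 and Anxa5 pair was kept as a description. Permutation tests were two-sided with 100000 resamples (numpy 2.4.6), and ratios used a pseudocount of 0.5. No 2 libraries of a diet were identical (0 of 66 pairs each). The members, lists and tests were chosen with earlier results of these data known. All 9 members, all partner genes and the 3 repair genes with the largest change past the threshold were named by rule, as were the 3 genes most like each member, of which 1 is not reported here. RefSeq protein sequences were not used here. The 24 libraries were grouped by the diet in their titles, and 0 columns of other samples were present.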

Additional observations from a re-analysis of the deposited data

How the results depend on the processing

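The 6 annexins called higher and 0 called lower stood under relative log expression and upper-quartile factors, no low-count filter, DESeq2, limma-voom, the sex-linked score and every fit with 1 library left out (6 and 6, 0 and 0). Total counts alone added Anxa7 (7 higher), the looser limit (FDR 0.05, any fold) gave 7 higher and 1 lower (Anxa11), a log2 limit of 1 gave 5, and a minimum of 10 counts in every library gave 5 since Anxa13 was not tested there. With the replicate number as a block, 6 members were higher and 0 lower. The numbers are not stated to pair mice, and same-numbered libraries correlated at -0.28 to 0.35 (median 0.233, against -0.059 for different numbers, with 8 of 12 pairs above 0.1 and 2 of 12 libraries closest to their own number). Signs reversed with total counts alone for Anxa6 (0.25), Anxa11 (0.17), S100a10 (0.20) and Pdcd6 (0.21), and with upper-quartile factors for Anxa6 (0.020).

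The partner genes called higher numbered 2 with at least 10 counts in every library, where fewer genes were tested, 7 with total counts alone (with Sri and Fpr2), 6 with the looser limit, and 5 to 6 with 1 library left out. The partner genes called lower numbered 1 with relative log expression factors, no filter, DESeq2, limma-voom, the replicate block, the sex-linked score and without control livers 4, 8 and 11. They numbered 0 with upper-quartile factors, total counts alone, at least 10 counts and a log2 limit of 1, and 1 to 2 with 1 library left out. Repair genes called higher numbered 7 with total counts alone and 7 with the looser limit (4 to 6 with 1 library left out), and those called lower 0, 3 and, at a log2 limit of 1, 0 (1 to 1 with 1 library left out). Over all genes, the looser limit called 3742 higher and 5221 lower and a log2 limit of 1 called 1862 and 686. Both ratios kept their direction and side of the threshold with a pseudocount of 1, without control livers 4, 8 and 11 and with 1 library left out (2.65 to 2.89 and 1.22 to 1.39). With the longest transcript as length, 11 of 18 shares moved by more than 1 SD. Other causes of these shifts were not tested. Counts of Anxa8, Anxa10 and Anxa13 in control livers were low enough for depth to limit them.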
